A study of Homo sapiens with 14 samples.

Results

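The transcriptional repressor REST, its corepressors RCOR1 and RCOR2, the neural splicing activators SRRM3 and SRRM4, the polypyrimidine tract binding proteins PTBP1, PTBP2 and PTBP3, and the epithelial splicing regulators ESRP1 and ESRP2 were followed in prostate cancer cells. The 10 genes were chosen by symbol, and all 10 were found in both expression tables, which hold 44591 genes for LNCaP cells and 24199 features for DU145 cells. LNCaP is an androgen-responsive prostate cancer line, and LNCaP-ENZ cells are its derivative kept in 20 µM of the androgen receptor antagonist enzalutamide, for which the text of the series gives 30 days. DU145 is an androgen receptor-poor prostate cancer line, and its cells carried lentiviral hairpins under puromycin selection, against PAX6 in shPAX6 cells and without a target in shCON cells. The hairpin used in the sequenced shPAX6 cells, of the 2 described in the methods, is not given in the sources used here. There was 1 library each of LNCaP and LNCaP-ENZ cells and there were 3 of each DU145 group, the latter being stable subclone lines, and nothing in the labels states that same-group libraries came from separate cultures, so p-values measure only the spread between these libraries.

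REST is a zinc finger repressor that silences neuronal genes in other tissues by binding a bipartite DNA element and recruiting RCOR1 (CoREST), histone deacetylases and demethylases. Neural cells keep it low in part through splicing, because SRRM4 and its relative SRRM3 switch REST pre-mRNA to a truncated product, and loss of REST activity with gain of SRRM4 is a known route of prostate adenocarcinoma towards the neuroendocrine state. PTBP1 represses neuronal exons in non-neural cells and gives way to PTBP2 in differentiating neurons, while PTBP3 is a broadly expressed paralog. ESRP1 and ESRP2 maintain the epithelial splicing programme, and ESRP1 in particular is lost when epithelial cells become mesenchymal. Values per gene, as used here, do not separate the splice forms of any of these genes.

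REST and PTBP3 differed most in LNCaP cells among the members with a mean of at least 1 CPM (counts scaled by the library total), and SRRM3 differed most of the members past the filter in DU145 cells, and the 250 bases upstream of their RefSeq transcription start sites are shown for this reason. The sequences come from the RefSeq promoter table of GRCh38.p14, and the coordinates are those of the single exact match of each in GRCh37, the build of the data. Capitals mark the GC box GGGCGG or its reverse complement CCGCCC, to which Sp1 and related factors bind, and in the second window of REST also GGACAG, the right-hand part of the REST element.
REST first window, chr4:57773816-57774065, plus strand: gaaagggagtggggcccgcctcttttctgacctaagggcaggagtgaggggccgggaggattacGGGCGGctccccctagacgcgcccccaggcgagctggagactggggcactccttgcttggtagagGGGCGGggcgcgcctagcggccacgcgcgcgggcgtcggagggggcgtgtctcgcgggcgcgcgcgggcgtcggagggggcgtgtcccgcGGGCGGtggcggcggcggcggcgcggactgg
REST second window, chr4:57774826-57775075, plus strand: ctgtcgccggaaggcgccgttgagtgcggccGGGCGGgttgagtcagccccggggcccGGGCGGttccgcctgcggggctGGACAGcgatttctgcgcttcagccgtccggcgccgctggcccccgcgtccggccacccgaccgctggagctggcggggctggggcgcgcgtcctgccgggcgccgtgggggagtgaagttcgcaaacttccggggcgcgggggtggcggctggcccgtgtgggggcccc
SRRM3, chr7:75830964-75831213, plus strand: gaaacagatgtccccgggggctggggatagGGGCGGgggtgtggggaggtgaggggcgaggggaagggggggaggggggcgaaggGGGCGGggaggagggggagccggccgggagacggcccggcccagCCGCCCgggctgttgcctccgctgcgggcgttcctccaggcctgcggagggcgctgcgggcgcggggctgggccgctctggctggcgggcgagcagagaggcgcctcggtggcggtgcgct
PTBP3, chr9:115095307-115095556, minus strand: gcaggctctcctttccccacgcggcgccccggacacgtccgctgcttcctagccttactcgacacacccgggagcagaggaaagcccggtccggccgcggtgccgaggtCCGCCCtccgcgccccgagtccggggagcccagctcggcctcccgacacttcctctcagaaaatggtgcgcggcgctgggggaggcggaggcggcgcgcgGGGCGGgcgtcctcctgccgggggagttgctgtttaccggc
RefSeq entries were found for 7 of the 10 members, with 2 windows each for REST and PTBP1, and RCOR2, ESRP1 and ESRP2 had none. In every window the GC box occurred at least once on either strand, against 42.6% of 35116 promoters searched over the same length. The first REST window held 3 GC boxes, the SRRM3 window 3 and the PTBP3 window 2. The right-hand REST site began at position -170 relative to the start in the second REST window, and its reverse complement CTGTCC at -147 upstream of RCOR1, with 17.2% of all promoters holding either orientation. No window held the left-hand part of the REST element, TTCAGCACC (0.288% of promoters), the androgen receptor core AGAACA (12.4%), the STAT site TTCNNNGAA (6.57%), the PAX6 paired domain core TTCACGC (1.10%) or the ZEB E-box CAGGTG (17.5%), each searched on both strands. GC content of the windows ran from 55.2% for PTBP2 to 82.4% for the second window of PTBP1. These matches describe letters and not binding, which was not analysed here.

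The LNCaP table holds 20468001 counts for parental and 17945722 for LNCaP-ENZ cells, of which 5 structural RNAs took 18.1% and 19.0%. The DU145 values were treated as FPKM, a level scaled by gene length and library size, and their depth is unknown. The shPAX6 library 1 stood apart from the other DU145 libraries, with a median of 5.58 FPKM over tested features against 6.89 to 7.89. PAX6, the targeted gene, had 0.839, 1.23 and 1.57 FPKM in shCON and 0.0153, 0.274 and 0.0778 FPKM in shPAX6 libraries, without overlap (log2 fold change -2.69, adjusted p = 0.054 by limma). The 6 luminal prostate markers summed to 2902 and 2571 CPM in the LNCaP libraries but only to 5.80 to 9.77 FPKM in DU145 libraries, where 3 of them were at 0, and 4 epithelial markers summed to 1135 to 1816 FPKM in DU145. Of 5 leukocyte markers 3 were at 0 in every DU145 library and the sum was 0.436 to 0.922 FPKM, against 2.74 and 3.90 CPM in LNCaP. Fibroblast markers summed to 24.0 and 16.0 CPM, with 3 of 5 lacking counts, and to 0.373 to 0.798 FPKM.

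Per-length levels set PTBP1 at the top of the members in every library. In parental LNCaP cells PTBP1 had 117 TPM, followed by ESRP1 with 18.7, ESRP2 with 16.7, RCOR1 with 10.4, PTBP3 with 9.91, REST with 6.30, PTBP2 with 3.87, RCOR2 with 1.14 and SRRM3 with 0.331 TPM. In the shCON cells of DU145 the order of the means was PTBP1 (225 FPKM), PTBP3 (19.0), ESRP2 (12.0), RCOR1 (10.8), REST (3.53), SRRM3 (1.75), PTBP2 (0.974), RCOR2 (0.768) and ESRP1 (0.172). The only neighbours in this order whose shCON values overlapped were PTBP2, at 0.810 to 1.19 FPKM, and RCOR2, at 0.598 to 0.891 FPKM. SRRM4 had no count in parental LNCaP cells and was listed at 0 in all 6 DU145 libraries.

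ESRP1 was the member whose rank differed most between the 2 lines. Its level lay at percentile 80.9 of the expressed genes of parental LNCaP cells and at percentiles 10.9 to 13.1 in shCON cells, where ranks were taken among the 18808 symbols that both tables share. ESRP2 lay at percentile 78.7 in LNCaP and at 64.6 to 65.0 in shCON cells. The ESRP2 level was 0.892 times that of ESRP1 in LNCaP and 1.15 times in LNCaP-ENZ cells, but 80.4, 56.7 and 77.3 times in the shCON libraries. PTBP2 ranked lower in DU145 too, at percentiles 23.1 to 25.4 in shCON against 47.4 in LNCaP cells. REST was at percentile 57.7 in LNCaP and at 38.7 to 43.1 in shCON cells. SRRM3 and PTBP3 ranked the other way, SRRM3 at 20.2 in LNCaP and 29.1 to 32.4 in shCON cells, and PTBP3 at 67.9 and 71.0 to 74.9. PTBP1 stayed between 96.3 and 98.4 in all 8 libraries. The tables were normalized separately, and line and table cannot be told apart, so these ranks are a description with no test.

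**Figure D1:**
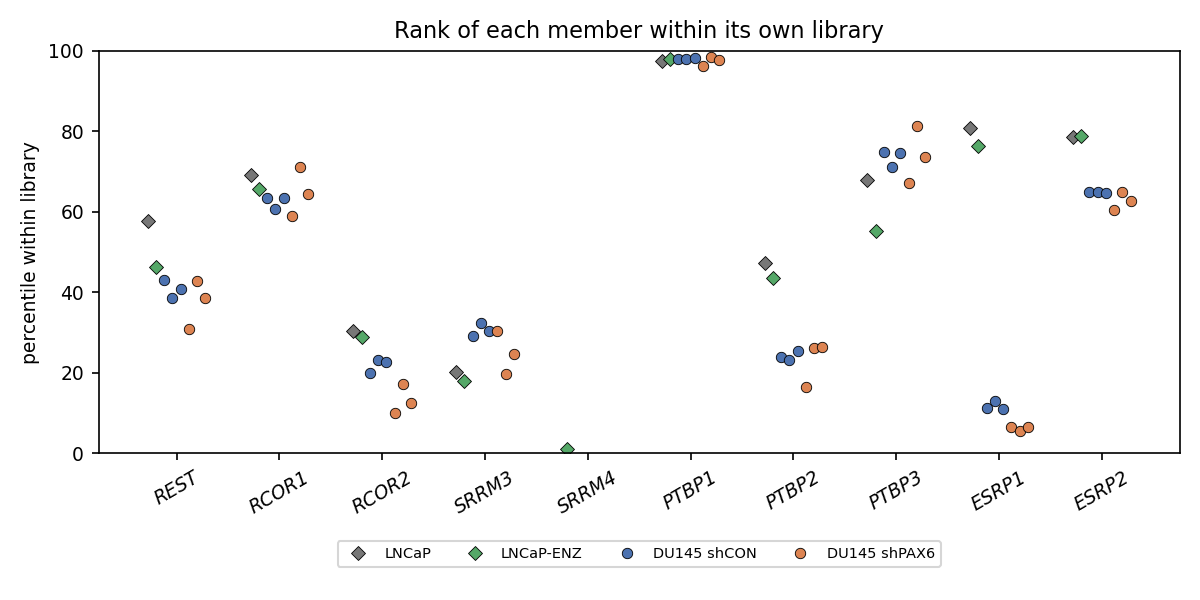
Rank of each member within its own library, as the percentile of its per-length level among shared symbols above 0. Diamonds are the LNCaP and LNCaP-ENZ libraries and circles the DU145 libraries. ESRP1 lies at 80.9 and 76.3 in the LNCaP libraries and at 5.7 to 13.1 in DU145, and PTBP1 lies above 96 everywhere.

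REST and PTBP3 were more than 2-fold under their parental level in LNCaP-ENZ cells, whereas PTBP1 was slightly higher. A mean of at least 1 CPM was reached by 8 members, 7 of them with a lower level in LNCaP-ENZ cells, and 2 were at least 2-fold lower and 0 at least 2-fold higher. Among the 14767 genes at that level 9.57% were at least 2-fold lower and 1.84% at least 2-fold higher, and the median log2 ratio was -0.15. With 1 library per arm there is no test, and the 95% intervals given are exact Clopper-Pearson intervals of the split of counts, which cover counting error only.

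REST (GRCh37 chromosome 4, 57774042 to 57802010) was covered by 921 counts in the parental library and by 379 in LNCaP-ENZ cells, or 45.0 and 21.1 CPM. The log2 ratio of CPM + 0.1 was -1.09 (-1.27 to -0.92), a 2.13-fold lower level. Of all genes with a mean of at least 1 CPM, 7.76% had a lower ratio. RCOR1, the scaffold that joins REST to histone-modifying enzymes (chromosome 14, 103058996 to 103196913), had 1178 and 794 counts and thus a ratio of -0.38 (-0.51 to -0.25). The RCOR1 level was thus 1.66 times that of REST in parental and 2.72 times in LNCaP-ENZ cells. RCOR2, a CoREST paralog enriched in neural and stem cells (chromosome 11, 63678693 to 63684316), had 58 and 36 counts, and its ratio of -0.48 had an interval that included 0 (-1.14 to 0.13).

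Of the neural splicing activators, SRRM4 was under the floor of detection and SRRM3 was low but above it. At 3 counts the floor is 0.147 CPM in parental and 0.167 CPM in LNCaP-ENZ cells. SRRM4 (chromosome 12, 119419300 to 119600856) was read by 0 and 2 counts, each below that floor, and no change was measurable at this depth. SRRM3 (chromosome 7, 75831211 to 75916609) had 24 and 13 counts, a mean below 1 CPM and a ratio of -0.63 with a wide interval (-1.79 to 0.34). The summed level of 5 neuronal markers was 9.82 CPM in parental and 1.39 CPM in LNCaP-ENZ cells, with 1 of the 5 at a mean of at least 1 CPM. That 1 marker had a log2 ratio of -3.21, so the sums do not show a change across the 5.

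The PTBP paralogs went different ways in these libraries. PTBP1 (chromosome 19, 797392 to 812327) had 7515 and 7555 counts, 367 and 421 CPM, and a ratio of 0.20 (0.15 to 0.24). PTBP2, the neuronal paralog (chromosome 1, 97187161 to 97280605), had 293 and 167 counts and a ratio of -0.62 (-0.90 to -0.34). PTBP3 (chromosome 9, 114979995 to 115095944) had 1600 and 677 counts, 78.2 and 37.7 CPM, and a ratio of -1.05 (-1.18 to -0.92). The PTBP1 level was 11.8 times that of PTBP3 in parental and 28.0 times in LNCaP-ENZ cells, and relative to PTBP2 it was 30.2 and 53.2 times. These level ratios are not corrected for GC content. After the GC correction given below, the log2 ratio was 0.21 for PTBP1, 0.19 for PTBP2 and -0.36 for PTBP3.

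Both epithelial regulators remained among the well-expressed genes of LNCaP-ENZ cells, at percentiles 76.3 for ESRP1 and 78.7 for ESRP2. ESRP1 (chromosome 8, 95653364 to 95719694) had 1395 and 923 counts and a ratio of -0.41 (-0.53 to -0.29). ESRP2 (chromosome 16, 68262450 to 68270136) had 1314 and 1118 counts, and its ratio of -0.04 had an interval that included 0 (-0.16 to 0.07) and turned to 0.10 with TMM factors. The end of ESRP2 lies over NFATC3 on the other strand, and no source says whether strand was used in counting.

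Both members past 2-fold are transcripts of low GC content, and the ratio moved with GC content over all genes. GC content of the longest transcript was 39.5% for REST, 36.6% for PTBP3 and 34.7% for PTBP2, against 61.7% for PTBP1. Among 2143 genes with a GC content of at most 40% the median log2 ratio was -0.64 and 23.6% were at least 2-fold lower, whereas among 1976 genes of 50% to 55% the median was 0.02 and 3.69% were. Length moved with the ratio as well, with a median of -0.44 for 1478 genes over 7000 bp, to which REST (7460 bp) and PTBP3 (8234 bp) belong. After a correction of the ratio for GC content, chosen after the data were seen, REST was at -0.57, PTBP3 at -0.36, PTBP2 at 0.19 and ESRP1 at -0.07, and 0 members were past 2-fold. With TMM factors REST was at -0.94 and PTBP3 at -0.90, so that also under this scaling neither was past 2-fold.

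**Figure D2:**
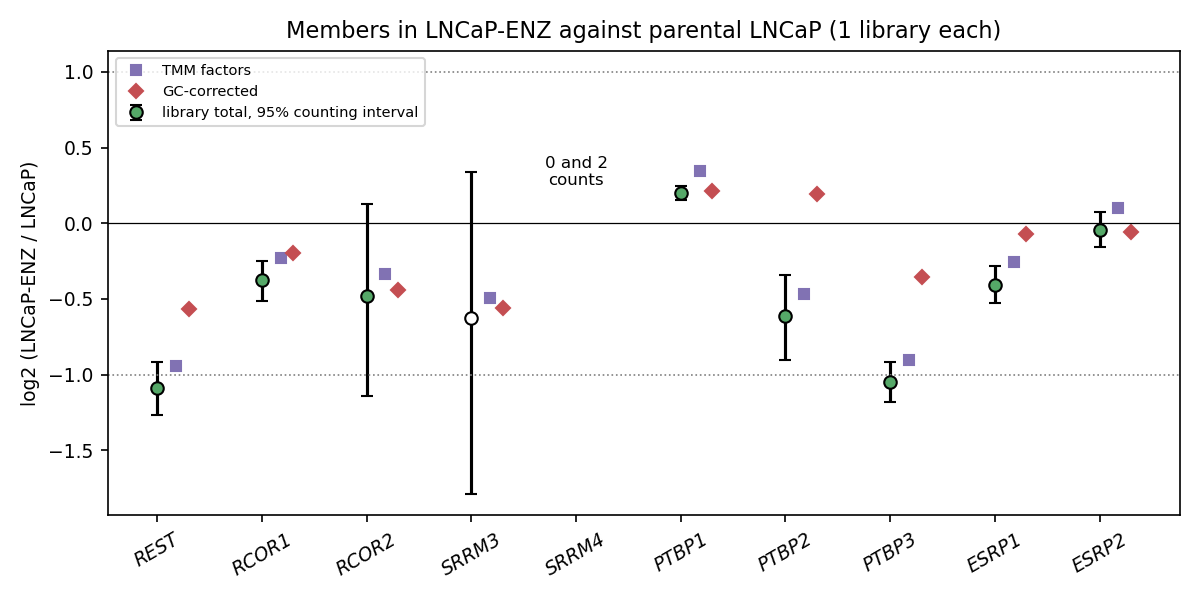
log2 ratio of LNCaP-ENZ over parental LNCaP for each member. Circles with bars are the ratio by library total with its 95% counting interval (open for a mean under 1 CPM), squares use TMM factors and diamonds the GC correction; dotted lines mark 2-fold. REST at -1.09 and PTBP3 at -1.05 lie past the line by library total but not with TMM factors or the GC correction.

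In DU145 cells the shPAX6 and shCON values of REST, RCOR1, PTBP1, PTBP2, PTBP3 and ESRP2 overlapped. SRRM3, RCOR2 and ESRP1 were lower in every shPAX6 library than in any shCON library. None of these differences passed the adjusted test, with or without a filter on low values. The 7 members past the filter had the mean of at least 0.5 FPKM required for the test by limma on log2(FPKM + 0.1), and 0 of the 7 passed an adjusted p of 0.05, where 1.2% of 13574 features did (24 higher and 139 lower in shPAX6 cells). At an unadjusted p under 0.05 there was 1 member, SRRM3, and there were 2480 features. Of the 9 members above 0, 3 were lower without overlap, and so were 16.7% of all features above 0. An exact permutation test of 3 against 3 libraries cannot go below p = 0.10, the value it gave for these 3 members.

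SRRM3 stood at 1.57, 1.87 and 1.80 FPKM in control cells (shCON) and at 1.36, 0.527 and 0.950 FPKM after knockdown (shPAX6). All shPAX6 values lay under the lowest shCON value, with shPAX6 library 2 lowest and library 1 nearest to the controls. The log2 fold change was -0.90 ± 0.34 (SE, 95% interval -1.69 to -0.11, adjusted p = 0.22 by limma). Without shPAX6 library 1 it was -1.18 with an adjusted p of 0.049 by limma, without shPAX6 library 2 it was -0.57 (adjusted p = 0.18 by limma), and with a GC correction per library it was -0.45 (adjusted p = 0.29 by limma). SRRM3 is the member richest in GC, at 68.0%, and for the 1778 tested genes above 60% the median change was -0.33 on the log2 scale, against 0.05 for the 2090 genes up to 40%. Neuronal markers summed to 1.51 to 1.76 FPKM in shCON and to 2.31 to 4.05 FPKM in shPAX6 cells, with none of the 5 at 0. Of the 3 tested, 0 passed and 1 was higher without overlap. Of all 13574 tested features, 3627 did not overlap, in either direction. The part of the neuronal markers in the SRRM3 values was not tested. In bulk RNA, fewer cells that express a gene and less RNA per cell cannot be told apart.

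RCOR2 had 0.598, 0.816 and 0.891 FPKM in shCON and 0.141, 0.360 and 0.170 FPKM in shPAX6 libraries. The shPAX6 mean of 0.224 ± 0.119 FPKM (SD, n = 3) was 3.43-fold under the shCON mean of 0.768 ± 0.152. Its mean over all libraries lay just under the filter at 0.5 FPKM, and without the filter the log2 fold change was -1.47 ± 0.35 (SE) with an adjusted p of 0.13 by limma. The fits with 1 library left out kept the filter. RCOR2 passed it only when a shPAX6 library was dropped, through its higher shCON values. Their adjusted p-values are therefore no support and cannot be set against 0.13. Leaving out shPAX6 library 2, the highest of the knockdown libraries, gave a log2 fold change of -1.75 and an adjusted p of 0.034 by limma. Without shPAX6 library 1 the adjusted p was 0.075 and without library 3 it was 0.29 by limma, so neither of these fits passed. With the GC correction and no filter it was -1.12 (adjusted p = 0.18 by limma), at a GC content of 64.2%. RCOR1, by contrast, had 11.4, 9.49 and 11.5 FPKM in shCON and 7.32, 16.6 and 11.3 FPKM in shPAX6 libraries. The shCON values lay inside the shPAX6 range, and the log2 fold change of 0.05 ± 0.29 (SE) had an interval from -0.62 to 0.71 (adjusted p = 0.96 by limma). Per length, RCOR1 was 19.0, 11.6 and 12.9 times the level of RCOR2 in shCON and 51.7, 46.0 and 66.3 times in shPAX6 libraries, 2 groups that did not overlap.

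REST had 4.05, 2.86 and 3.69 FPKM in shCON and 1.40, 4.23 and 2.81 FPKM in shPAX6 libraries. Library 2 of shPAX6 was above every control, library 1 was far under all of them and library 3 just under the lowest. The log2 fold change was -0.43 ± 0.38 (SE, interval -1.33 to 0.46, adjusted p = 0.62 by limma) and came to -0.02 without shPAX6 library 1 and to -0.78 without library 2. The interval holds both no change and a 2-fold lower level, so these libraries do not distinguish them. SRRM4, which acts on REST pre-mRNA, was listed at 0 throughout.

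PTBP1 had 220, 218 and 236 FPKM in shCON and 167, 248 and 223 FPKM in shPAX6 libraries. Its log2 fold change was -0.10 ± 0.17 (SE, interval -0.50 to 0.30, adjusted p = 0.82 by limma). PTBP3 had 20.4, 16.1 and 20.5 FPKM against 11.7, 28.7 and 18.3 FPKM, with a fold change of -0.04 ± 0.31 (SE, interval -0.76 to 0.67, adjusted p = 0.96 by limma). For PTBP2 the values were 0.927, 0.810 and 1.19 FPKM in shCON and 0.370, 1.21 and 1.13 FPKM in shPAX6 libraries, a fold change of -0.22 ± 0.43 (SE, interval -1.23 to 0.79, adjusted p = 0.84 by limma). In all 3 paralogs shPAX6 library 1 was the lowest of the 6 libraries and shPAX6 library 2 the highest. Without library 1 their fold changes were above 0, and PTBP1 was at 0.26 with the GC correction, so that no direction can be given for the family. The PTBP1 level was 237, 269 and 199 times that of PTBP2 in shCON and 451, 206 and 197 times in shPAX6 libraries, of which library 1 lay far above the control range.

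ESRP1 was barely detected in DU145 cells and had 0.152, 0.207 and 0.157 FPKM in shCON and 0.0782, 0.0474 and 0.0606 FPKM in shPAX6 libraries. The groups did not overlap, and the means of 0.172 ± 0.030 and 0.0621 ± 0.0154 FPKM (SD, n = 3) were 2.77-fold apart. Without the filter the log2 fold change, which a pseudocount of 0.1 shrinks at this level, was -0.74 ± 0.21 (SE, adjusted p = 0.18 by limma) and with the GC correction -0.70 (adjusted p = 0.25 by limma). ESRP2 had 12.2, 11.7 and 12.2 FPKM in shCON and 7.95, 12.3 and 10.3 FPKM in shPAX6 libraries, with shPAX6 library 2 above all controls. Its fold change was -0.26 ± 0.19 (SE, interval -0.69 to 0.18, adjusted p = 0.53 by limma) and 0.05 with the GC correction. ESRP2 was therefore the predominant epithelial splicing regulator RNA in DU145 cells, at 102, 260 and 170 times the ESRP1 level in the shPAX6 libraries.

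**Figure D3:**
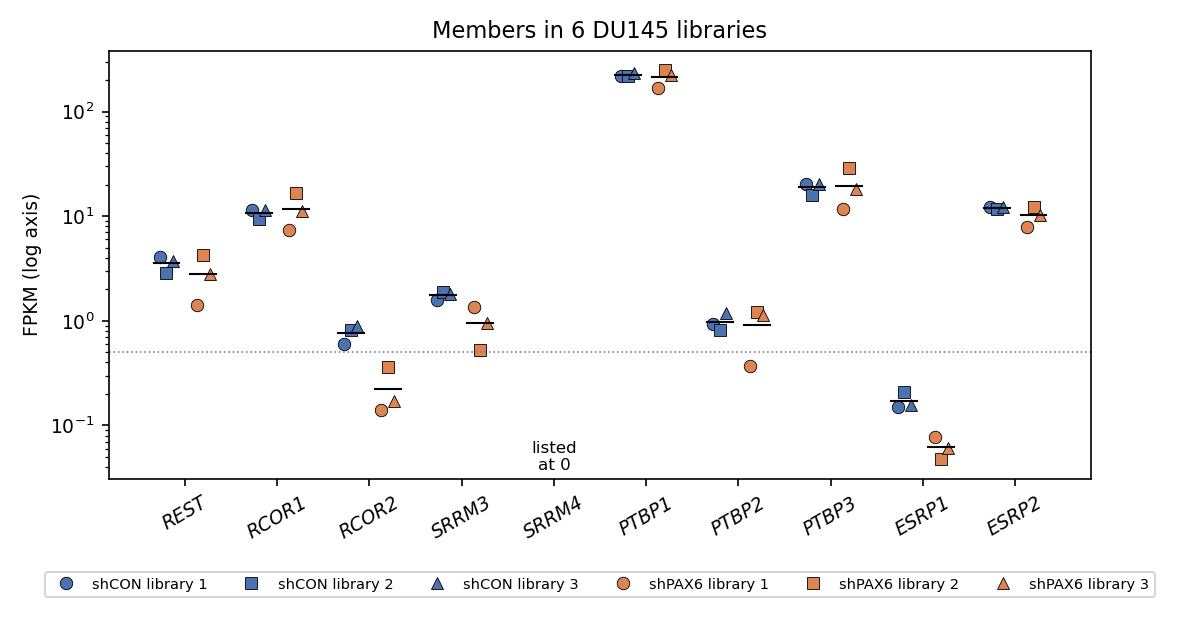
FPKM (log axis) of each member in the 6 DU145 libraries, blue for shCON and orange for shPAX6, with the symbol giving the library number, black lines the group means and the dotted line the filter of 0.5 FPKM. RCOR2, SRRM3 and ESRP1 show no overlap between the groups, and shPAX6 library 1 is lowest for REST, RCOR1, RCOR2, the PTBP genes and ESRP2.

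**Figure D4:**
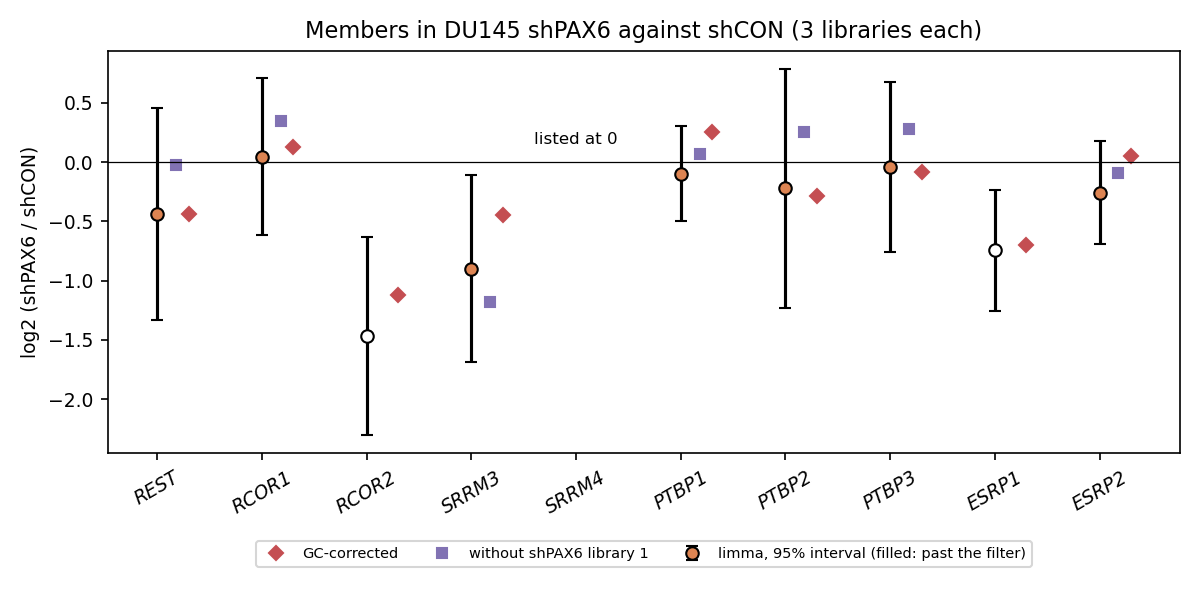
log2 fold change of each member in shPAX6 against shCON cells. Circles with bars are the limma estimate with its 95% interval (open where computed without the filter), squares leave out shPAX6 library 1 and diamonds use the GC correction. SRRM3 moves from -0.90 to -0.45 with the correction, and REST from -0.43 to -0.02 without the library.

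**Figure D5:**
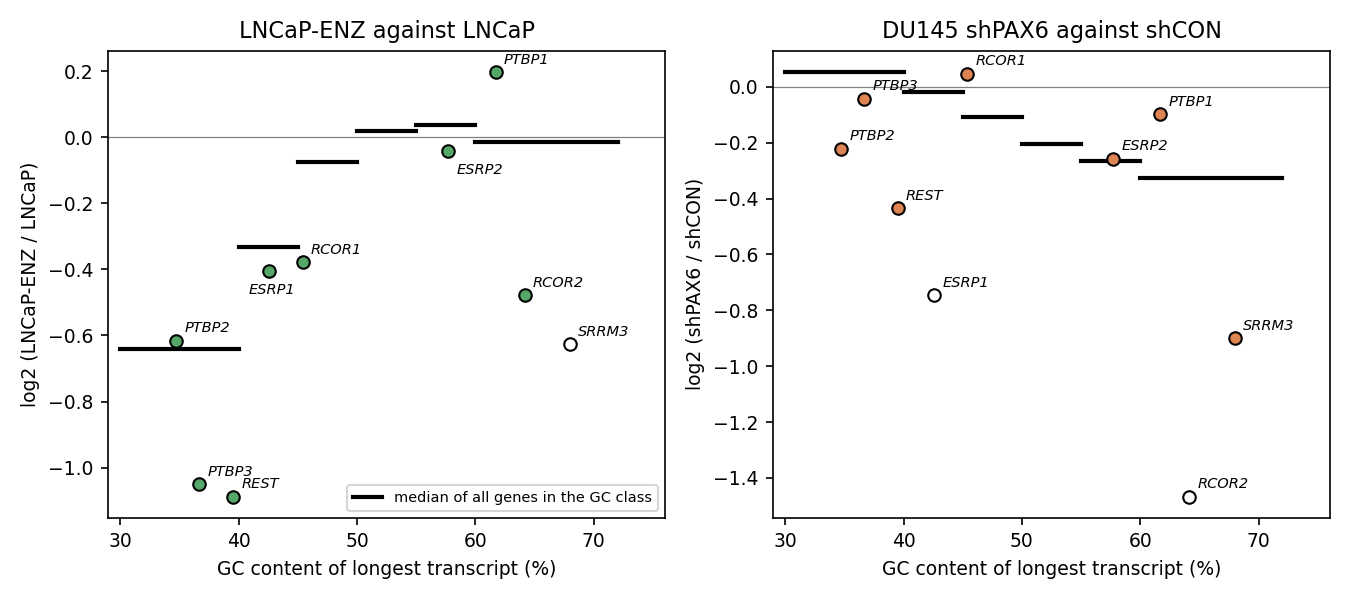
GC content of the longest transcript against the change of each member, in LNCaP-ENZ against LNCaP cells (left) and in shPAX6 against shCON cells (right). Black bars are the medians of all genes in 6 classes of GC content, drawn to the range of the members, and open circles are members under the expression filter. The class medians rise from -0.64 at low GC content in the left panel and fall to -0.33 at high GC content in the right one.

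The trend with GC content ran in opposite directions in the 2 comparisons, and the largest changes of members lay on its low side in each. Over genes, Spearman's rho between GC content and change was 0.37 in LNCaP (12605 genes) and -0.36 in DU145 (12009 genes), as a description, since genes are not replicates. In LNCaP, REST at -1.09 and PTBP3 at -1.05 lay under the median of -0.64 of their GC class, and PTBP2 at -0.62 lay beside it. In DU145, SRRM3 at -0.90 and RCOR2 at -1.47 lay under the median of -0.33 of theirs, while ESRP1 at -0.74 lay in a class (40% to 45%) whose median was -0.02.

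The partners of REST were described from a list of 19 genes for its corepressor complexes and for the enzymes that set its stability. None of the 19 passed by limma at the adjusted threshold in DU145, where 1.2% of all 13574 features tested did. At an unadjusted p under 0.05 by limma there were 5 of the 19, and 2480 of all features tested. Fold changes of the partners were under 0 in 17, and 7 genes were lower without overlap. So were 16.7% of all features above 0, a set that includes features under the filter. Of all 13574 tested features, 3627 did not overlap, in either direction. The median log2 fold change of the list was -0.25, against -0.12 for all tested features. The lowest were the phosphatase CTDSP2 (29.4 to 17.3 FPKM, -0.84, adjusted p = 0.19 by limma) and the H3K9 methyltransferase EHMT1 (19.5 to 12.2 FPKM, -0.71, adjusted p = 0.18 by limma). The highest were RCOR3, the third CoREST paralog (6.11 to 7.10 FPKM, 0.19), and the deacetylase HDAC2 (17.2 to 19.1 FPKM, 0.19). In LNCaP cells RCOR3 was the 1 of 19 partners at least 2-fold lower in LNCaP-ENZ cells, with 667 and 283 counts (-1.04), and 0 were higher. Of all genes with a mean of at least 1 CPM, 9.57% were at least 2-fold lower and 1.84% higher. The median log2 ratio of the list was -0.14, against -0.15 for all genes. The RCOR3 ratio was taken by library total only. ZMYM2 had 762 and 361 counts (-0.88), and EHMT2 had a ratio of 0.36.

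Known REST targets of neurons and neuroendocrine cells, a list of 48 genes, were mostly too low to test. In DU145, 18 were tested and 1 passed, where 1.2% of all tested features did. The gene that passed, the microtubule regulator STMN3, fell from 4.42 ± 0.34 to 1.59 ± 0.03 FPKM (SD, n = 3, log2 fold change -1.42, adjusted p = 0.023 by limma). This call and the 3 others given for listed genes, RAVER1, CDH1 and TPM1, were lost without any 1 of the shCON libraries and without shPAX6 library 3, where 0 of the 85 tested genes of the 5 lists passed, and 9 passed without shPAX6 library 2. The median of the 18 was -0.01, CELSR3 was at -0.90 (adjusted p = 0.21 by limma), and SCG5 and NEFM had the highest fold changes of 0.65 and 0.55 without passing. In LNCaP, 18 had a mean of at least 1 CPM, of which 6 were at least 2-fold lower and 1 at least 2-fold higher in LNCaP-ENZ cells, where 9.57% and 1.84% of all genes at that level were. Their median ratio on the log2 scale was -0.35, against -0.15 for all genes. L1CAM, a neural adhesion molecule, had 108 and 14 counts (-2.61) and TUBB3, neuronal tubulin, 360 and 69 counts (-2.16), while the neurotrophin BDNF had 46 and 149 counts (1.84) and FAM155B 490 and 626 (0.54). L1CAM reached the mean of at least 1 CPM only through the parental library, so a lower ratio was built into its selection.

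Other tissue-restricted splicing regulators were taken from a list of 41 genes. RAVER1, a PTBP1 cofactor, was the only 1 of 27 tested to pass in DU145, where 1.2% of all tested features did. It fell from 46.3 ± 4.4 to 23.7 ± 1.0 FPKM (SD, n = 3, log2 fold change -0.96, adjusted p = 0.025 by limma), without overlap. With the GC correction its change was -0.60 (adjusted p = 0.055 by limma). SRRM2, the broadly expressed relative of SRRM3 and SRRM4, was at -0.49 (adjusted p = 0.48 by limma), and MBNL1 and NOVA1 had the highest values of 0.37 and 0.27 without passing. In LNCaP, of 30 with a mean of at least 1 CPM, LNCaP-ENZ cells had 1 at least 2-fold higher and 2 lower, where 1.84% and 9.57% of all genes were. MBNL2, a regulator of developmental exon switches, had 32 counts in parental and 313 in LNCaP-ENZ cells, a ratio of 3.40 on the log2 scale (2.95 to 4.05). The neuronal regulator NOVA2 had 82 and 12 counts (-2.42), RBM24 had 821 and 249 (-1.52), and PCBP1 3587 and 4731 (0.59). NOVA2 reached the mean of at least 1 CPM only through the parental library, so a lower ratio was built into its selection.

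Among 12 genes of the epithelial state tied to ESRP expression, 6 were tested in DU145 and 1 passed, where 1.2% of all tested features did. CDH1, the adherens junction cadherin, fell from 6.14 ± 0.84 to 1.26 ± 0.53 FPKM (SD, n = 3, log2 fold change -2.28, adjusted p = 0.033 by limma, or 0.062 with no filter on low values). EPCAM had 11.6 and 6.84 FPKM (-0.75, adjusted p = 0.054 by limma), and OVOL2, a repressor of mesenchymal genes, was under the filter at 0.453 and 0.0713 FPKM. The mesenchymal genes VIM, at 1021 and 1516 FPKM (0.56, adjusted p = 0.14 by limma), and ZEB1, at 1.23 and 1.67 FPKM (0.28), did not pass. ZEB1 values overlapped between the groups. The mesenchymal regulator SNAI1 went the other way, at 4.84 and 3.27 FPKM (-0.55, adjusted p = 0.20 by limma). SNAI2, under the filter, was at 0.280 and 0.182 FPKM with overlap. In LNCaP, 2 of 10 were at least 2-fold lower in LNCaP-ENZ cells and 0 higher (9.57% and 1.84% of all genes). The 2 lower genes were SNAI2 with 73 and 1 counts and GRHL3 with 58 and 12 counts. Both reached the mean of at least 1 CPM only through the parental library, so a lower ratio was built into their selection. The SNAI2 count in LNCaP-ENZ cells also lay under the floor of 3 counts. OVOL2 and SNAI1 had the highest ratios of 0.36 and 0.21.

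Genes whose exons ESRPs and PTBPs are known to control, a list of 16, were read for their total RNA only. TPM1, the tropomyosin gene whose exon choice PTBP1 controls, was the 1 of 15 tested that passed in DU145, where 1.2% of all tested features did. It rose from 68.3 ± 2.5 to 140 ± 12 FPKM (SD, n = 3, log2 fold change 1.03, adjusted p = 0.020 by limma). DLG4 and SRC were lowest, at -0.62 and -0.60 (adjusted p = 0.17 and 0.11 by limma), both lower without overlap. Of the 15 tested genes of this list, 3 were lower and 2 higher without overlap. Of all 13574 tested features, 3627 did not overlap, in either direction. In LNCaP, 5 of 15 were at least 2-fold lower in LNCaP-ENZ cells and 0 higher, where 9.57% and 1.84% of all genes were, and the median of the list was -0.46 on the log2 scale against -0.15 for all genes. RALGPS2 had 172 and 55 counts (-1.43), and the highest ratios were 0.31 for PKM and 0.11 for ARHGEF11.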

How the data were processed

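RNA-seq tables of LNCaP (1 library per arm) and DU145 cells (3 per group) were analysed, leaving aside 6 ATAC-seq samples. According to the methods, cDNA was primed with oligo-dT and reads were aligned to GRCh37 with HISAT2 and quantified with StringTie. The methods state 3 replicates for each line, whereas the labels give 1 LNCaP library per arm, and they describe other library kits and read lengths than those. The authors deposited, for LNCaP, raw counts and TPM per gene symbol. The DU145 values deposited by the authors carry no unit and were treated as FPKM. How reads shared by paralogs were assigned is not given in the sources used here.

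LNCaP counts were scaled by library total and compared as the log2 ratio of CPM + 0.1, with a floor of 3 counts. DU145 values were tested two-sided with limma 3.58.1 (R 4.3.3; lmFit, eBayes with trend) on log2(FPKM + 0.1), with a mean of at least 0.5 FPKM, Benjamini-Hochberg adjustment over all 13574 features and a threshold of 0.05. No replicate block was used. GC content came from the longest GENCODE transcript lifted to GRCh37 and was known for 88.5% (DU145) and 85.4% (LNCaP) of the genes tested or compared. It was corrected by loess per DU145 library and by lowess on the LNCaP ratio (span 0.5 in both). The steps were tested on simulated data. Alternatives were other pseudocounts and filters, quantile normalization, median centring, TMM factors (edgeR 4.0.16), TPM, a replicate block and each library left out. Totals without the 10 most counted genes, the LNCaP GC correction and the GC correction without a filter were added after the data were seen.

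The members and gene lists were chosen with earlier results of these data known. Beside the members, genes are named where they passed in DU145 or had the 2 largest changes in each direction of their list in DU145 (past the filter) or LNCaP (mean of at least 1 CPM). MATR3 is listed under 2 identifiers and was left out. Some genes that this rule covers are not reported here.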

Additional observations from a re-analysis of the deposited data

How the results depend on the processing

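In DU145, the count of members that passed stayed at 0 under all alternatives except the fits without 1 library (0 to 1). The count over all features, 163, was 108 with no filter, 100 with median centring, 0 with the replicate block, 7 with the replicate block and the GC correction, and 0 to 924 with 1 library left out. The other listed genes that passed were 4 of 85, where 1.2% of all tested features passed. They were 0 with the replicate block, 0 with the block and the GC correction, and 0 to 9 with 1 library left out. RAVER1 alone was lost with the GC correction and with median centring. Lower and higher calls numbered 139 and 24 as deposited, 162 and 74 after quantile normalization, 72 and 28 after median centring, and 122 and 100 after the GC correction. Same-numbered libraries deviated from their group means with correlations of -0.17, -0.37 and 0.05. With 3 libraries per group these values cannot settle whether same-numbered libraries shared a day or culture.

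Fold changes near 0 changed sign. RCOR1 ran from -0.24 to 0.34, PTBP1 from -0.22 to 0.069, PTBP2 from -0.48 to 0.26 and PTBP3 from -0.36 to 0.28 with 1 library left out. PTBP1 was at 0.079 with median centring, at 0.26 with the GC correction, at 0.26 with the replicate block and the GC correction and at 0.22 with the GC correction and no filter. PTBP2 was at 0.051 and PTBP3 at 0.10 with quantile normalization, and PTBP3 at 0.13 with median centring. ESRP2 was at 0.051 with the GC correction with or without the replicate block, and at 0.014 without the filter. Of 123 member values under the alternatives, 104 kept their direction and side of the threshold.

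In LNCaP, the 2 members past 2-fold were 0 with TMM factors, 0 with the median log2 ratio set to 0 and 0 with the GC correction. The 1684 genes past 2-fold were 1054 with a pseudocount of 1, 6120 with no filter and 884 with the GC correction. Depth limits SRRM3, SRRM4 and RCOR2 in LNCaP, and in DU145 it is unknown.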
